A study of Mus musculus with 8 samples.

Results

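The 77 cytosolic ribosomal protein genes are described here as one group in mouse regulatory T cells (Tregs) with and without the transcription factor Bcl11b. They were chosen by name alone: every gene of the table whose symbol is Rpl or Rps with a number (and at most 1 trailing letter and its number), plus Rplp0, Rplp1, Rplp2 and Rpsa. This gave 77 of 23997 listed genes, 46 of the large and 31 of the small ribosomal subunit. RNA sequencing was done on CD4+YFP+ cells sorted from the draining lymph nodes and spleens of C57BL/6 mice. The deficient group carried Bcl11b f/f with Foxp3-YFP-Cre/+, and the sufficient group carried Bcl11b f/+ with Foxp3-YFP-Cre/+. The controls therefore also carried the Cre allele and 1 floxed copy of Bcl11b and were not wild type. The Cre is driven by Foxp3, an X-linked gene that marks Tregs, so that in carriers of 1 Cre allele only those Tregs that use that X chromosome express it. The labels give no ages, no pooling of animals and no tie of a library to an animal. The p-values therefore measure the spread between these libraries alone, and that spread may be technical.

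Ribosomal proteins and ribosomal RNA build the large and the small subunit, which together translate every cytosolic mRNA. Cells make the proteins in near-equal amounts, and surplus proteins are degraded. Most of their mRNAs begin with a run of pyrimidines (a TOP start), which places their translation under the kinase complex mTORC1, and T cells raise ribosome production when they are activated.

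Each group had 4 deposited columns of FPKM (fragments mapped to a gene, per length of its transcript and per depth of the library). Over 2847 to 2873 genes of intermediate read number, replicates 1 and 3 differed by less than read sampling noise in both groups. So did replicates 2 and 4 of the deficient group. Each of these pairs was averaged and counted as 1 library, which left 2 deficient and 3 sufficient libraries. Depths estimated from the steps of low FPKM values ran from 2700000 to 11900000 fragments per column, and are rough, since only 42.4% to 58.8% of those low values fell on whole steps. Bcl11b was lower in the deficient libraries, at 24.4 and 19.0 FPKM against 42.4, 46.5 and 39.1 FPKM (a log2 difference of -0.95, SE 0.14, with limma adjusted p = 0.0238). Foxp3 stood at 153 and 153 FPKM in the deficient and 198, 198 and 165 FPKM in the sufficient libraries (-0.28, SE 0.12, limma adjusted p = 0.285), and the groups did not overlap.

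The windows below show the starts of members that recur in the results, 5 with a pyrimidine run near the start of the gene and 3 without. Each window holds the 45 bases before and the first 15 bases of the annotated RefSeq transcript start (GRCm38.p6), and capitals mark each C followed by at least 6 further C or T on the gene's strand.

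Rplp2 (chr7:141447606-141447665, + strand): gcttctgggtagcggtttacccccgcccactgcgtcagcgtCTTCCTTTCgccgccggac

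Rpl12 (chr2:32961667-32961726, + strand): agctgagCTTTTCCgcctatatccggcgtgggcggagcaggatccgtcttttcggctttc

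Rps26 (chr10:128626492-128626551, - strand): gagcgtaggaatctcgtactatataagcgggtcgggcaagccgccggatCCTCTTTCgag

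Rps6 (chr4:86857353-86857412, - strand): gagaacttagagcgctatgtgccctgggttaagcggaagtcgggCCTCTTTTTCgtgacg

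Rps27 (chr3:90213634-90213693, - strand): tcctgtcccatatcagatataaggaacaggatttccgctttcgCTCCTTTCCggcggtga

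Rps13 (chr7:116334176-116334235, - strand): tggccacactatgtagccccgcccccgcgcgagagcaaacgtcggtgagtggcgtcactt

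Rpl10 (chrX:74270771-74270830, + strand): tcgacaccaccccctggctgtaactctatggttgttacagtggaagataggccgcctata

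Rpl41 (chr10:128549154-128549213, - strand): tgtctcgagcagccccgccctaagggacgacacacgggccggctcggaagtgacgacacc

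The run spans the annotated transcript start in Rplp2, Rps6 and Rps27 and lies after it in Rps26. In Rpl12 it lies well before the start, outside the annotated mRNA.

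Of the 77 members, 57 had a RefSeq window, 67 windows in all. Such a run lay in 64.2% of the member windows, against 28.3% of all 32851 windows of the table. In the full 300 bases, searched on both strands, CCGGAAG (an ETS factor core) was found in 37.3% of member windows against 8.86% of all windows. AAGATGG (a YY1 core) was found in 16.4% against 6.34%, and GGGCGG (an SP1 core) in 61.2% against 35.7%. TATAAA, a core promoter element, was found in 8.96% against 13.6%. These are matches of letters in annotated windows. Rps13, Rpl10 and Rpl41 held no run of this length in the window shown, although Rps13 was among the members with the most negative and Rpl10 and Rpl41 among those with the least negative difference.

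The members were among the most abundant messages of these cells, and 59 of the 77 averaged over 1000 FPKM across the 5 libraries. Rplp1, an acidic protein of the stalk that recruits translation factors, had the highest level, at 3615 and 2864 FPKM in the deficient and 4576, 4347 and 3980 FPKM in the sufficient libraries. Rps15, a protein of the small subunit head, stood at 2853 and 2945 FPKM against 4298, 3408 and 5220 FPKM. Rpl32 stood at 2671 and 3081 FPKM against 4292, 3624 and 4348 FPKM. For these 3 genes both deficient libraries lay below all sufficient libraries, and none passed the test (limma adjusted p = 0.315 for Rplp1, 0.259 for Rps15 and 0.22 for Rpl32).

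Both subunits held a smaller share of the total FPKM in the deficient libraries, and by about the same amount. The large subunit genes made up 11.6% and 12.2% of the total in the deficient libraries and 14.7%, 13.3% and 14.1% in the sufficient libraries (11.9% ± 0.365, SD, n = 2, against 14.0% ± 0.679, SD, n = 3). The small subunit genes made up 10.5% and 11.2% against 13.4%, 11.9% and 13.1% (10.8% ± 0.503, SD, n = 2, against 12.8% ± 0.764, SD, n = 3). In both subunits the deficient libraries lay below all sufficient libraries, and sufficient replicate 2 was the nearest to them. The ratio of the summed FPKM of the large to the small subunit was 1.10 ± 0.0175 (SD, n = 2) in deficient and 1.10 ± 0.018 (SD, n = 3) in sufficient libraries, so the balance of the subunits differed by less than the spread between libraries. The small nucleolar RNA Snora61, listed at 31182 FPKM in sufficient replicate 4 and at 0 in every other library, takes a part of that library's total. The smallest p that an exact permutation test of 2 against 3 libraries can give is 0.1, so no test is given for the shares.

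**Figure D1:**
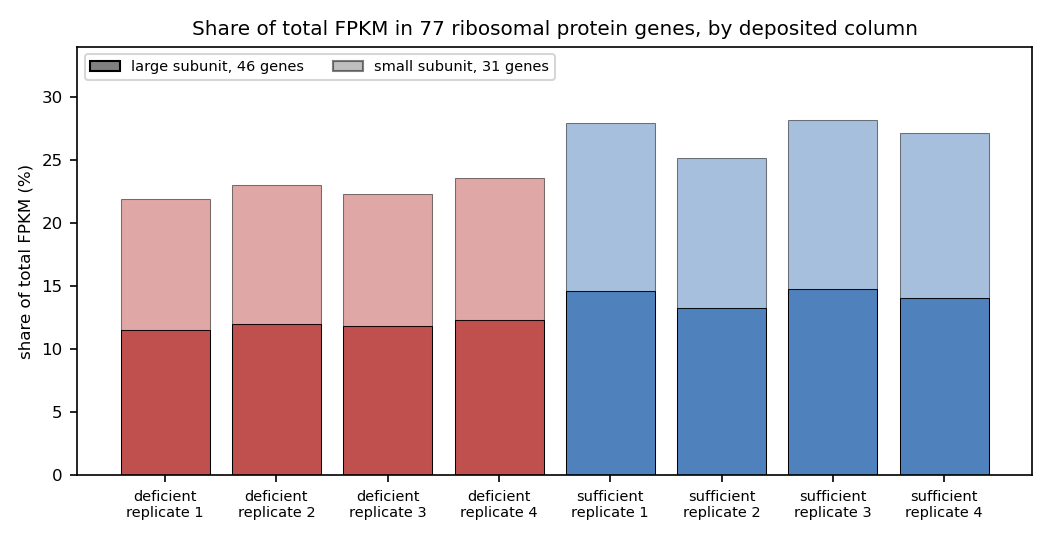
Share of total FPKM (percent, vertical axis) held by the 46 large subunit genes (full colour) and the 31 small subunit genes (pale) in each of the 8 deposited columns, deficient in red and sufficient in blue. The 4 deficient columns sum to between 21.8% and 23.6%, and the 4 sufficient columns to between 25.3% and 28.2%.

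Gene by gene the difference was shallow and shared. Of the 77 members, 75 had an estimate below 0, against 52.1% of all 10614 genes tested, and the median log2 fold change (deficient minus sufficient, on log2(FPKM + 1)) was -0.43 for the large and -0.44 for the small subunit, against -0.01 for all genes. The middle of the distribution was narrow, with quartiles of -0.51 and -0.37. Each gene was tested with limma, with Benjamini-Hochberg adjustment over all genes and a threshold of 0.05. It called 0 members lower and 1 higher (Rps27), where 0.697% of all genes tested were called lower and 2.63% in either direction. At an unadjusted p under 0.05, 36 members were lower, and 8.45% of all genes tested. Both deficient libraries lay below all 3 sufficient libraries for 62 members, 35 of 46 in the large and 27 of 31 in the small subunit, against 17.9% of all genes tested. The 62 are not 62 separate observations, since the members share the same 5 libraries and move together in them. Among the sufficient libraries 72 of the 77 were lowest in replicate 2, and 54 were highest of all in sufficient replicate 4. In the library of deficient replicates 1 and 3, 65 were lower than in that of replicates 2 and 4. Within the sufficient group, replicate 4 over replicate 2 had a median ratio of 1.31 over the members, with 59 of 77 over 1.2. Over genes averaging at least 5 FPKM that median was 1.04. The gap between these 2 sufficient libraries was thus not far below the group difference.

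The size of this difference depended on how the libraries were scaled. With every library brought to the same total FPKM, the median was -0.22 for the large and -0.23 for the small subunit. The median of all genes moved to 0.18. Such scaling shifts all genes by about the same amount, so it keeps the distance between the members and all genes by construction. With quantile normalization, which gives every library the same set of values and so holds the most abundant genes level, the medians were -0.09 and -0.04 and 54 of the 77 estimates were below 0. With all 8 columns entered as separate libraries, 58 members were called lower against 7.98% of all genes tested, but that fit counts near-identical columns as independent.

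**Figure D2:**
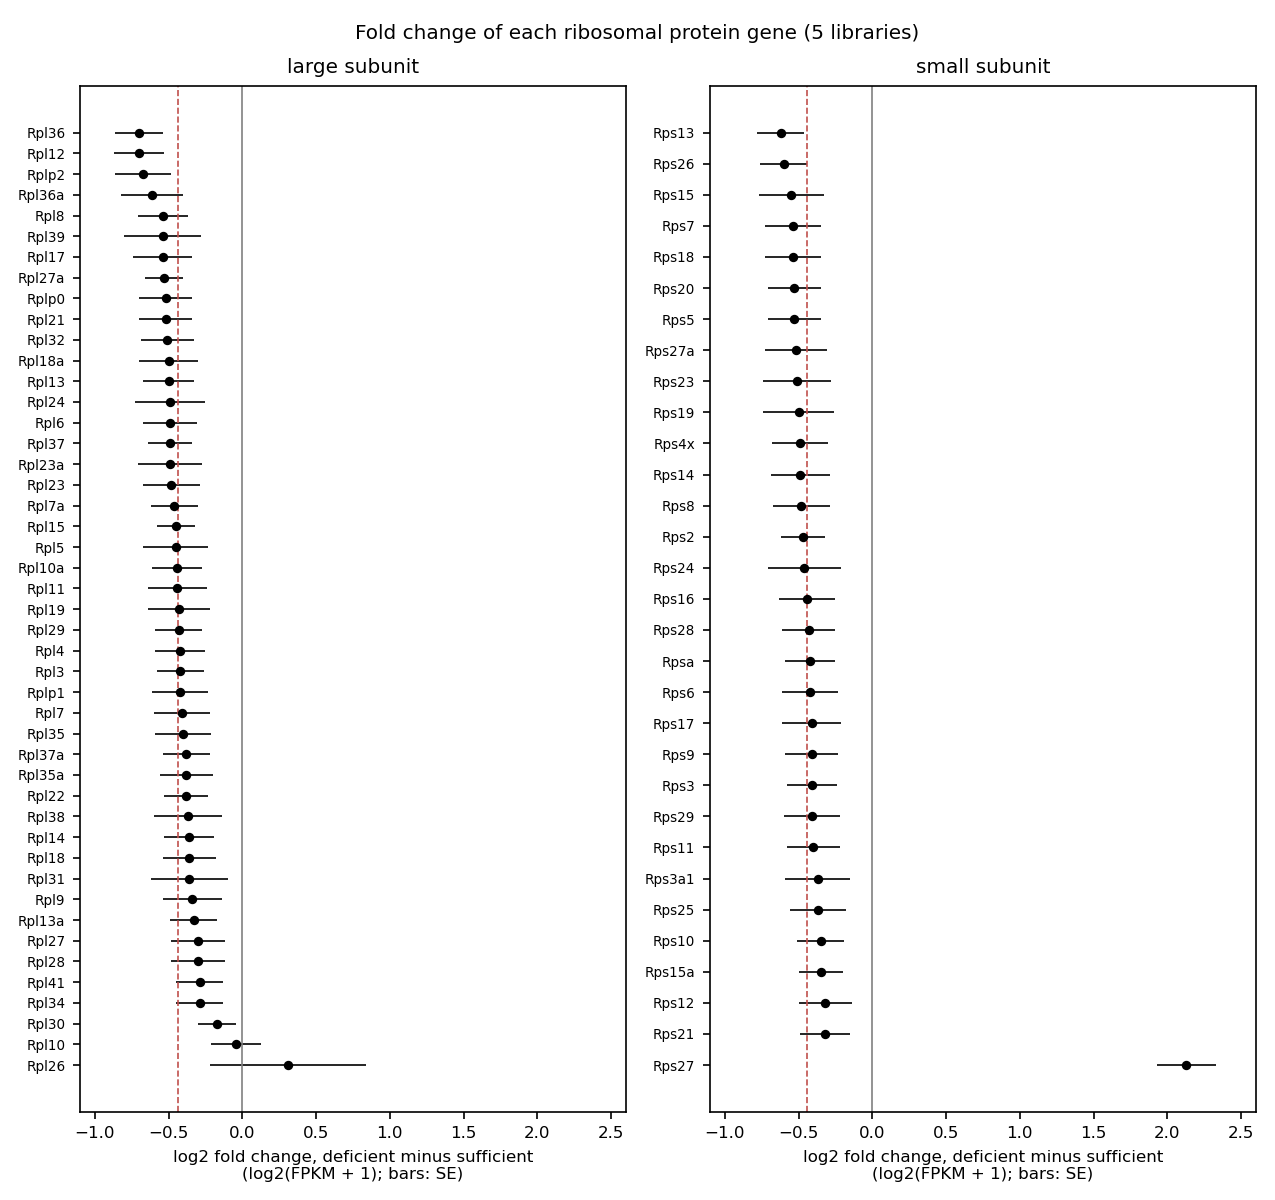
Log2 fold change of each member (horizontal axis, deficient minus sufficient on log2(FPKM + 1), 5 libraries; bars are the SE) with the large subunit on the left and the small subunit on the right, ordered by fold change; the dashed line is the subunit's median, -0.43 and -0.44. Nearly all points lie close to that line, and Rps27 at 2.13, Rpl26 at 0.31 and Rpl10 at -0.04 stand to its right.

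In the large subunit, 2 of the 3 most negative estimates belonged to the stalk and its base. Rplp0 anchors the stalk, Rplp1 and Rplp2 extend from it, and Rpl12 lies at its base. The median of these 4 genes was -0.59. Both deficient libraries lay below all sufficient libraries for all 4, against 35 of 46 in the subunit and 17.9% of all genes tested. Rplp1 had an estimate of -0.42 (SE 0.19, limma adjusted p = 0.315), near the subunit's median of -0.43. Rpl12 stood at 2289 and 2207 FPKM in the deficient and 3701, 3268 and 4022 FPKM in the sufficient libraries (a log2 difference of -0.70, SE 0.17, limma adjusted p = 0.0949). It was past the threshold with equal totals (-0.49, limma adjusted p = 0.0386) and under 3 other alternatives. Rplp2 stood at 2562 and 1894 FPKM against 3550, 3373 and 3605 FPKM (-0.67, SE 0.19, limma adjusted p = 0.134), and the 2 deficient libraries were further from each other than the 3 sufficient ones. Rplp0 stood at 1033 and 1429 FPKM against 1895, 1716 and 1613 FPKM (-0.52, SE 0.18, limma adjusted p = 0.216). The roles were assigned after these values were seen, and the stalk was not tested against the other members.

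Rpl36 had the most negative estimate beside Rpl12. It stood at 1578 and 1342 FPKM in the deficient and 2500, 2194 and 2398 FPKM in the sufficient libraries (-0.70, SE 0.16, limma adjusted p = 0.0768). The gap between the groups was wider than the range of either group. Rpl36a, an X-linked large subunit gene, stood at 684 and 931 FPKM against 1300, 975 and 1415 FPKM (-0.61, SE 0.21, limma adjusted p = 0.21).

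The other roles of the large subunit lay near its median. Rpl5 and Rpl11, which carry the 5S ribosomal RNA into the subunit and bind the p53 regulator Mdm2 when ribosome assembly is disturbed, had estimates of -0.45 (SE 0.22) and -0.44 (SE 0.20). Rpl5 stood at 488 and 589 FPKM against 815, 549 and 872 FPKM, and its libraries overlapped, whereas those of Rpl11 did not. The 8 genes placed at the peptide exit tunnel and its opening had a median of -0.42. Both deficient libraries lay below all sufficient ones for 4 of these 8, against 17.9% of all genes tested. Among the 8 was Rpl39, an X-linked gene of the tunnel wall, at 1390 and 1726 FPKM against 2335, 1658 and 2951 FPKM. Rpl39 overlapped between the groups, since sufficient replicate 2 lay below one deficient library. Rpl22 (-0.38, SE 0.15), which T cell development is known to need, Rpl13a (-0.33, SE 0.16), a gene with a role in interferon-driven control of translation, and Rpl38 (-0.37, SE 0.23), known for the translation of Hox mRNAs, did not pass the test either, with limma adjusted p of 0.265, 0.348 and 0.456. Rpl41, which encodes the shortest of the proteins, stood at 2014 and 2279 FPKM against 2867, 2496 and 2490 FPKM (-0.29, SE 0.16).

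In the small subunit the most negative estimates belonged to Rps13 and Rps26. Rps13 stood at 1266 and 1015 FPKM in the deficient and 1755, 1676 and 1790 FPKM in the sufficient libraries (-0.62, SE 0.16, limma adjusted p = 0.102). Rps26, which lines the channel where the mRNA leaves, stood at 1577 and 1381 FPKM against 2442, 2051 and 2216 FPKM (-0.60, SE 0.16, limma adjusted p = 0.122). For both genes the groups were apart. Of the 13 genes placed in the head of the small subunit, all had an estimate below 0, with a median of -0.44. Both deficient libraries lay below all sufficient ones for 12 of them, against 17.9% of all genes tested. The 5 genes at the entry and exit of the mRNA had a median of -0.43, and the 9 whose human counterparts are mutated in Diamond-Blackfan anaemia had a median of -0.45.

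Members that are studied for signalling or disease had estimates near the median of their subunit. Rps6, the substrate of the S6 kinases, stood at 550 and 629 FPKM against 822, 631 and 930 FPKM (-0.42, SE 0.19, limma adjusted p = 0.307). Rpsa, which is also described as a laminin receptor, had an estimate of -0.42 (SE 0.17), and Rps19, the gene most often mutated in Diamond-Blackfan anaemia, -0.50 (SE 0.24). Rps14 had an estimate of -0.49 (SE 0.20), the X-linked Rps4x -0.49 (SE 0.19), and Rps27a, which is made as a fusion with ubiquitin, -0.52 (SE 0.21). Rps29 and Rps18, both of high level, had -0.41 (SE 0.19) and -0.54 (SE 0.19). Their limma adjusted p ran from 0.207 to 0.333. At the other end were Rps21 (-0.32, SE 0.17), Rps12 (-0.32, SE 0.18) and Rps10 (-0.35, SE 0.16), whose estimates turned to 0.16, 0.11 and 0.10 with quantile normalization.

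Rpl10 was the abundant member that differed least. This X-linked gene (chrX:74270812-74273135, + strand, mm10) encodes a protein near the peptidyl transferase centre that joins the large subunit late in its assembly. It stood at 1522 and 1717 FPKM in the deficient and 1733, 1428 and 1849 FPKM in the sufficient libraries (a log2 difference of -0.04, SE 0.17, limma adjusted p = 0.931). The groups overlapped, and sufficient replicate 2 was the lowest of the 5. All libraries were also rescaled to the median ribosomal protein gene, which asks for unequal change among the members. Relative to that gene, Rpl10 was higher in the deficient libraries (0.39, SE 0.09, limma adjusted p = 0.0301). The median of all genes tested was 0.38 in that fit, so Rpl10 stood near the median gene of the table. In that fit 2 members were called, Rpl10 and Rps27, both higher, against 7.76% of all genes tested, so the count itself is below the background. Rpl12 had -0.27 there (SE 0.09, limma adjusted p = 0.0767). The other X-linked members, Rpl36a, Rpl39 and Rps4x, had the estimates of -0.61, -0.54 and -0.49 that placed them with the autosomal members.

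**Figure D3:**
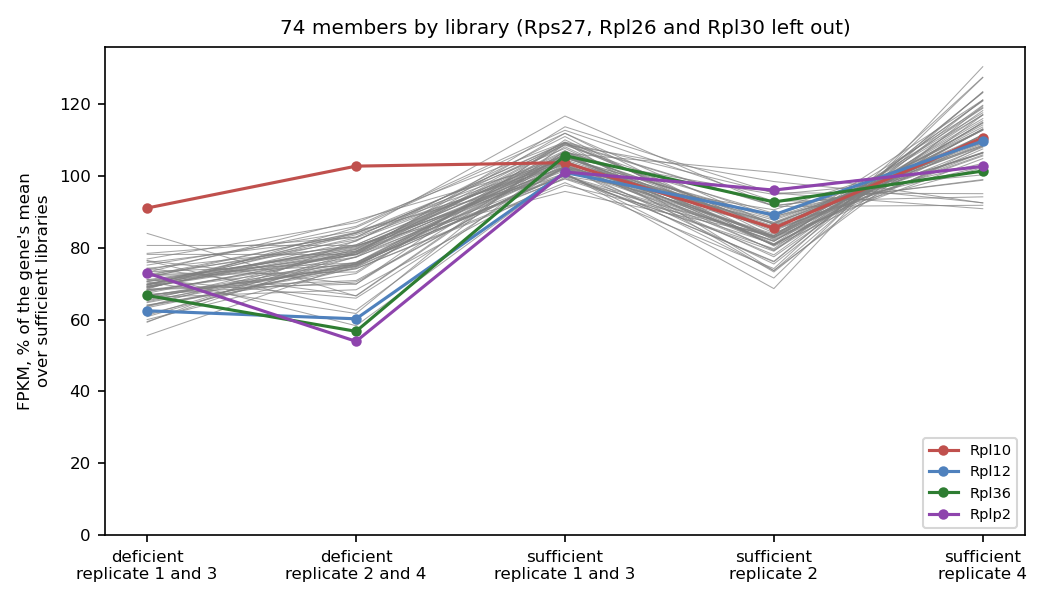
FPKM of 74 members in each of the 5 libraries (horizontal axis) as a percent of the gene's mean over the sufficient libraries (vertical axis); each line is 1 gene and only joins its values, grey except for 4 named genes. The lines run together through the libraries, Rpl10 stays near its sufficient level in both deficient libraries, and Rpl12, Rpl36 and Rplp2 are among the lowest in the library of deficient replicates 2 and 4.

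Rps27 was the only member past the threshold, and it was higher in the deficient group. Rps27 (chr3:90212522-90213651, - strand) encodes a zinc-finger protein of the small subunit. Its columns stood at 18.9, 12.9, 197 and 124 FPKM in deficient replicates 1 to 4 and at 22.7, 19.1, 18.7 and 16.8 FPKM in sufficient replicates 1 to 4. Deficient replicates 3 and 4 were high and all the other columns were low. Over libraries its level differed by 2.13 on the log2 scale (SE 0.20, limma adjusted p = 0.00823), against 1.93% of all genes tested called higher. The call rests on replicates 3 and 4. Within the averaged pairs of the deficient group, replicate 3 was 10.4 times replicate 1 and replicate 4 was 9.60 times replicate 2. These pairs differed by less than sampling noise over genes of intermediate read number, which is not all genes. With only replicates 1 and 2 of each group the estimate of Rps27 was -0.39. Without deficient replicate 3 it was 0.91 and without deficient replicate 4 it was 0.97, and neither passed.

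A copy of Rps27 was listed at a far higher level. Rps27rt (chr9:114982366-114982739, - strand) is listed as protein coding, and its transcript is 100% identical to Rps27 over 341 bases, so that reads within them cannot be told apart. It stood at 4676 and 5795 FPKM in the deficient and 7338, 5636 and 8506 FPKM in the sufficient libraries. Summed, Rps27 and Rps27rt stood at 4783 and 5863 FPKM against 7359, 5655 and 8523 FPKM (-0.42, SE 0.24, limma adjusted p = 0.424). The sum overlapped between the groups and its estimate lay at the members' median.

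A near-identical copy of higher level was also listed for 3 other members that lay far below most of the rest. Rpl26 averaged 42.0 FPKM over the 8 columns and its processed pseudogene Gm15772 (chr5:3236431-3236868) 2050 FPKM. Rpl30 averaged 38.7 FPKM and its processed pseudogene Gm12191 (chr11:49678710-49679057) 2380 FPKM. Rpl34 averaged 233 FPKM and its processed pseudogene Rpl34-ps1 (chr6:71124610-71124963) 2180 FPKM. In each case the copy was over 99% identical to the member and carried the level usual for ribosomal proteins. Alone, Rpl26 had an estimate of 0.31 (SE 0.53) and Rpl30 of -0.17 (SE 0.13), with limma adjusted p of 0.801 and 0.54. Summed with the copy, Rpl26 stood at 1534 and 1792 FPKM against 2574, 1923 and 3034 FPKM (-0.57, SE 0.22, limma adjusted p = 0.247). Rpl30 stood at 1780 and 2147 FPKM against 2947, 2152 and 3414 FPKM (-0.51, SE 0.23, limma adjusted p = 0.309).

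**Figure D4:**
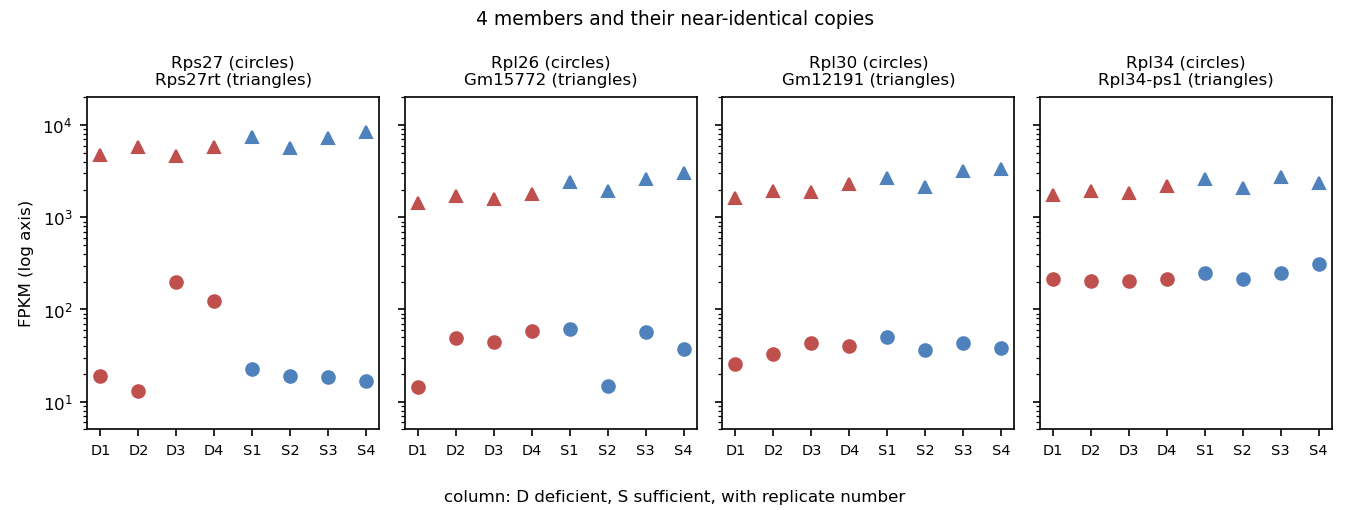
FPKM (log axis) of 4 members (circles) and of the near-identical copy listed for each (triangles) in the 8 columns, deficient (D) in red and sufficient (S) in blue. The copies lie far above the members in every column. Rps27 is higher in deficient replicates 3 and 4 than in its other columns. Rpl26 is lowest in deficient replicate 1 (14.3 FPKM) and sufficient replicate 2 (14.7 FPKM).

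With all 11 listed copies added to their 10 members, every one of the 77 estimates was below 0, none passed the test, and 37 were lower at an unadjusted p under 0.05. The median was -0.44, and 73 of the 77 lay within 0.2 of it. Both deficient libraries lay below all sufficient ones for 64, against 17.9% of all genes tested without such sums. The highest was Rpl10 at -0.04 and the lowest -0.70. The members and their copies made up 24.9% ± 1.11 (SD, n = 2) of the total FPKM in the deficient and 29.4% ± 1.69 (SD, n = 3) in the sufficient libraries. A sum of FPKM over genes of different length is approximate, and the copies were defined after these levels were seen. Near-identical copies are common in this family: 72 of the 77 members had at least 1 other annotated gene of 95% identity or more, with a median of 5 and up to 59 for Rpl21, so the level of any single member depends on how such reads were divided.

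Columns that were averaged still differed in the members, and, without Rps27, Rpl26 and Rpl30, in a similar way in all 3 pairs. The median ratio of the members was 1.03 for deficient replicate 3 over 1, 1.04 for deficient replicate 4 over 2 and 1.01 for sufficient replicate 3 over 1. Individual members ranged more widely: Rpl39 was 1.47, 1.30 and 1.44 times higher in the later-numbered column, and Rpl5 1.37, 1.31 and 1.32 times. Rpl27a, Rpl31 and Rps6 were also over 1.2 times higher in all 3 pairs. Over 74 members (without Rps27, Rpl26 and Rpl30) the log ratios of the pairs correlated with Pearson's r of 0.88, 0.90 and 0.93, a description across genes that share the libraries. Over all 77, r was 0.91 between the 2 deficient pairs, and 0.00 and 0.04 between these and the sufficient pair. Rps27, Rpl26 and Rpl30 were 10.4, 3.08 and 1.69 times higher in deficient replicate 3 than in replicate 1. In the sufficient group these ratios were 0.822, 0.933 and 0.879. Replicates 3 and 4 were deeper, at 8950000 to 11900000 estimated fragments against 2700000 to 5620000 in replicates 1 and 2. The labels name HiSeq 2500 and MiSeq without saying which library was run on which, and the part of depth or instrument in these ratios was not tested. In replicates 1 and 2 of each group the medians for the large and small subunit were -0.38 and -0.39. In replicates 3 and 4 they were -0.52 and -0.54. These sets are not separate evidence, since most of their columns are the averaged pairs. Only sufficient replicates 2 and 4 were not averaged.

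**Figure D5:**
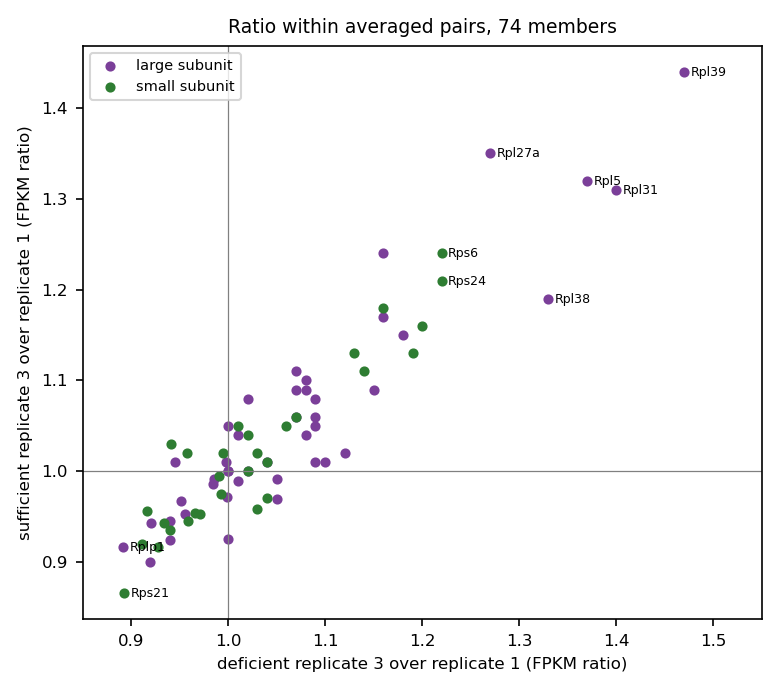
FPKM ratio of replicate 3 to replicate 1 in the deficient group (horizontal axis) and in the sufficient group (vertical axis) for 74 members, coloured by subunit. The points follow a rising line, with Rpl39, Rpl31, Rpl5 and Rpl27a at its upper end.

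Ribosomal proteins that the name rule leaves out lay near the members. Of 10 such genes tested, none was called, and the median was -0.38. Fau, which encodes a small subunit protein fused to a ubiquitin-like one, stood at 1847 and 1898 FPKM against 2447, 2201 and 3043 FPKM (-0.44, SE 0.19, limma adjusted p = 0.28). Gnb2l1, the scaffold protein Rack1 of the small subunit, stood at 1343 and 1405 FPKM against 1952, 1632 and 2007 FPKM (-0.43, SE 0.16, limma adjusted p = 0.225). The paralog Rpl22l1 had an estimate of -0.42 (SE 0.21). Rps27l, a p53-induced paralog of Rps27, was the exception in sign at 0.05 (SE 0.14), with 75.9 and 98.8 FPKM against 88.2, 75.0 and 88.1 FPKM.

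The other messages with a TOP start lay lower by a similar amount. All 24 tested had an estimate below 0, with a median of -0.35 and none called. Both deficient libraries lay below all sufficient ones for 18, against 17.9% of all genes tested. Eef1a1, the elongation factor that brings aminoacyl-tRNA to the ribosome, stood at 5385 and 6032 FPKM against 7754, 6504 and 7657 FPKM (-0.35, SE 0.20, limma adjusted p = 0.413). Eef2, which moves the ribosome along the mRNA, had -0.31 (SE 0.14), and Tpt1, a TOP message of a tumour-associated protein, -0.38 (SE 0.19). Npm1, a nucleolar assembly chaperone, stood at 415 and 519 FPKM against 690, 560 and 638 FPKM (-0.43, SE 0.15, limma adjusted p = 0.215). Elongation factors as a list had a median of -0.32 over 9 genes and none called. The TOP list shares genes with the elongation factors and holds ribosomal proteins such as Fau and Gnb2l1, so these lists are not separate evidence.

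The machinery that builds ribosomes had medians nearer to 0 than the ribosomal proteins in the fit reported and with equal totals, but not with quantile normalization. There the members' median was -0.06, against -0.15 for ribosome assembly, -0.08 for RNA polymerase I, -0.13 for mitochondrial ribosomal proteins, -0.24 for small nucleolar RNA host genes, -0.19 for the other TOP messages and -0.04 for initiation factors. Over 105 genes of ribosome assembly and rRNA processing the median was -0.16 and none was called, with 20 lower and 1 higher at an unadjusted p under 0.05. Ncl, the nucleolar protein nucleolin, stood at 81.5 and 91.2 FPKM against 114, 107 and 113 FPKM (-0.36, SE 0.10, limma adjusted p = 0.138). Over 22 genes of RNA polymerase I transcription the median was -0.13, and over 37 initiation factors -0.10, with none called in either. The 77 mitochondrial ribosomal protein genes had a median of -0.15 and 1 call, against 0.697% of all genes tested called lower. Mrpl52 fell, from 125, 144 and 135 FPKM in the sufficient to 89.5 and 70.1 FPKM in the deficient libraries (-0.76, SE 0.13, limma adjusted p = 0.0387). The 10 small nucleolar RNA host genes had a median of -0.22 and none called. Snhg1 was the nearest to the threshold among them (-0.60, SE 0.13, limma adjusted p = 0.0704).

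The lists of the Myc network, of mTORC1, and of ribosomal protein surveillance and p53 held 1 call each. Over all genes tested, 0.697% were called lower and 2.63% in either direction. In the Myc network, 1 of 11 genes fell: Bmyc, a Myc relative without the DNA-binding part, went from 34.4, 36.0 and 31.1 FPKM to 14.9 and 7.75 FPKM (-1.56, SE 0.23, limma adjusted p = 0.0259). Myc itself stood at 59.2 and 48.5 FPKM against 73.5, 56.1 and 56.4 FPKM (-0.20, SE 0.16, limma adjusted p = 0.565), and its libraries overlapped. In the mTORC1 list, with a median of -0.03, 1 of 32 genes fell: Rragd, a Rag GTPase that passes amino acid signals to mTORC1 (-0.73, SE 0.14, limma adjusted p = 0.0456), at a low level of 2.40 and 2.67 FPKM against 4.80, 4.82 and 4.95 FPKM. In the list of ribosomal protein surveillance and p53, with a median of 0.02, 1 of 14 fell: Cdkn1a, the p53 target p21 (-1.23, SE 0.21, limma adjusted p = 0.0341). These calls lay near the threshold: that of Bmyc was lost under 7 of 25 alternatives, Cdkn1a under 10 of 24, Mrpl52 under 12 of 25 and Rragd under 16 of 24.

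Markers of other cell types differed between the groups in some lists and overlapped in others. Over all genes tested, 1.93% were called higher in the deficient group. Of 17 macrophage and monocyte markers tested, 9 were called higher in the deficient group, and their summed level was 970 and 611 FPKM against 240, 304 and 356 FPKM, with Marco at 0 in at least 1 library. Of 10 NK and innate-like markers, 7 were called higher, with sums of 389 and 446 FPKM against 19.2, 44.1 and 33.3 FPKM and Ncr1 and Klra7 at 0 in at least 1 library. Dendritic cell markers had 2 of 5 called higher (162 and 166 FPKM against 143, 134 and 145 FPKM). Of 4 B cell markers tested, 1 was called higher, Ly6d (1.10, SE 0.16, limma adjusted p = 0.0236), and 2 had an estimate below 0. B cell sums overlapped, at 20.0 and 23.7 FPKM against 15.5, 18.4 and 27.7 FPKM, with Ms4a1 and Pax5 at 0 in at least 1 library. The 1 CD8 T cell marker tested, Cd8b1, had -0.30 (SE 0.13, limma adjusted p = 0.285). Erythroid sums were 14.1 and 126 FPKM against 0.513, 62.9 and 11.3 FPKM, and neutrophil sums 7.45 and 35.2 FPKM against 3.76, 39.8 and 5.87 FPKM, with no call in either list. Treg markers summed to 1863 and 1937 FPKM against 2572, 2393 and 2525 FPKM. Of the 9 tested, 1 was called lower, against 0.697% of all genes tested: Ctla4, an inhibitory receptor (-1.72, SE 0.22, limma adjusted p = 0.0174). Both deficient libraries lay below all sufficient ones for 7, against 17.9% of all genes tested. The part of these cells in the ribosomal protein values was not tested, and in bulk samples fewer cells of a type and less RNA per cell cannot be told apart.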

How the data were processed

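RNA of sorted CD4+YFP+ cells was sequenced from total RNA with a stranded kit, per the labels' protocols. The authors deposited 1 table of FPKM values, and the tools are, per the submitters' processing notes, STAR 2.5.1, cutadapt 1.12 with Trim Galore 0.4.2, FastQC, and both Cuffdiff 2.2.1 and Cuffnorm 2.2.1, with build mm10. Settings, annotation and the handling of reads that match several genes: not given in the sources used here. Such handling bears on this gene family directly. A further 8 columns of the table match no sample and were not used.

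Columns whose spread was under 1.2 times read sampling were averaged (0.847 to 0.944, other pairs of a group at least 1.43), a bound set after these ratios were seen. The spread was taken over genes of intermediate estimated read number, not over all genes or the members. log2(FPKM + 1) of every gene averaging 1 FPKM or more was fitted with limma 3.58.1 (R 4.3.3, trend) on the whole table, with Benjamini-Hochberg adjustment and a threshold of 0.05, after a test on simulated data. Fold changes on this scale understate the change of low genes. All 77 members passed the filter.

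Near-identical copies are GENCODE M21 transcripts matched with blastn 2.17.0 (at least 95% identity, 80% of the shorter transcript, 200 bases); this rule replaced 2 stricter or looser ones and was chosen after levels were seen. Gene positions are from GENCODE M21 (GRCm38, the same assembly as mm10). Members, lists and roles were chosen with earlier results of these data known. Named were, per subunit, the 3 highest in level and the 4 lowest and 4 highest in fold change, fixed members of known role, and up to 4 list genes of lowest p; Rpl27a, Rpl31, Rpl34, Rps27rt, Gm15772, Gm12191, Rpl34-ps1 and Snora61 were named after their values were seen. Some genes of the lists are not reported by name. Alternatives were other pseudocounts, filters and scalings, all 8 columns, a replicate block, robust variance estimates and left-out replicates or libraries.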

Additional observations from a re-analysis of the deposited data

How the results depend on the processing

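The medians of both subunits stayed below 0 under the pseudocounts, filters, left-out libraries and column sets tried, but not their size: with equal totals they were -0.22 and -0.23, with quantile normalization -0.09 and -0.04, and scaled to the median ribosomal protein gene, by construction, -0.00 and -0.01. Ribosomal protein genes called numbered 1 in the fit reported, 2 with equal totals, 2 with equal totals outside ribosomal proteins, 2 scaled to their median, 58 with 8 columns, 0 in replicates 1 and 2 only, 0 with copies summed, and 0 to 1 with a replicate left out. Over all genes, 279 were called, against 182 (pseudocount 0.1), 99 (no filter), 113 (mean of at least 5 FPKM), 842 (median ribosomal protein gene), 1851 (8 columns), 16, 8 and 167 (without the merged library of deficient 1 and 3, deficient 2 and 4, or sufficient 1 and 3), 53 (replicates 1 and 2), 184 (replicates 3 and 4) and 80 to 297 with a replicate left out. Of the genes in the related lists, 23 were called, among them 9 macrophage and monocyte and 7 NK and innate-like markers. The count was 14 (pseudocount 0.1), 6 (no filter), 12 (mean of at least 5), 95 (8 columns), 3 and 1 (without the merged deficient libraries), 7 (replicates 1 and 2) and 10 to 23 with a replicate left out. With a replicate left out, the lowest counts came without sufficient replicate 2 (80 genes) and sufficient replicate 4 (133 genes, 10 in lists).

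A replicate block on the 8 columns called 1418 genes, 46 members (all lower) and 72 list genes. The labels do not say whether the numbers pair the samples. Deviations of same-numbered columns correlated at 0.027, 0.058, 0.13 and 0.091, and not every column correlated best with its own number. Near-identical columns within a group shape these deviations, so the correlations cannot decide whether samples were paired.

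Signs that turned were these. Rpl26 was -0.01 with 8 columns, -0.01 with the replicate block, -0.13 without deficient 2 and 4, -0.16 in replicates 1 and 2, -0.57 summed, and from -0.22 to 0.60 with a replicate left out. Rpl10 was 0.17 with equal totals, 0.33 with quantile normalization, 0.10 with equal totals outside ribosomal proteins, 0.05 without deficient 1 and 3, 0.04 in replicates 1 and 2, and from -0.15 to 0.04 with a replicate left out. Rpl30 was 0.03 with equal totals and 0.03 in replicates 3 and 4. Rps27 was -0.39 in replicates 1 and 2 and -0.42 summed. Rps27l was -0.14 without deficient 2 and 4, -0.01 in replicates 3 and 4, and from -0.03 to 0.09 with a replicate left out. Quantile normalization gave Rpl41 0.16, Rps29 0.06, Rps21 0.16, Rps12 0.11, Rps10 0.10, Rpl13a 0.07, Rpl38 0.05, Eef1a1 0.06, Eef2 0.06 and Tpt1 0.11. Myc was 0.01 with equal totals. Causes were not tested. The call of Bcl11b was lost under 9 of 25 alternatives. Pseudocount, filter, scaling, robust variances and the block do not enter the share of total FPKM. The scaling to the median ribosomal protein gene measures a different quantity and is not counted among the alternatives of single genes. Replicates 1 and 2 against 3 and 4, the sums over copies and the medians without 3 members were added after seeing the data. With 2 deficient libraries, precision is limited by their number.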
